A study of Homo sapiens with 18 samples.

Results

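ER5 and ER42 are 2 human neuroblastoma lines that grow in entrectinib, a drug that blocks kinases of the Trk family, ALK and ROS1, and their transcripts were compared by bulk sequencing of ribosome-depleted total RNA. Genes entered the comparison when they had at least 1 FPKM (fragments per kilobase of transcript, relative to the total of the library) in at least 3 of the 6 ER5 and ER42 libraries, and 17677 of 63657 gene identifiers (27.8%) did. Both lines descend from SY5Y-TrkB cells, a TrkB-expressing derivative of the SH-SY5Y neuroblastoma line, that had been grown under the skin of athymic nu/nu mice. Each line was cultured from 1 tumour that had first responded to oral entrectinib at 60 mg/kg and had then regrown. The mouse that gave ER5 was dosed every 4 hours, and the mouse that gave ER42 every 6 hours. In culture both lines were adapted from 10 nM up to 750 nM entrectinib and were held in 200 nM until harvest, and the labels speak of clones. With 1 line for each dosing interval, effects of the interval, the tumour and the clone cannot be told apart here. The 12 other libraries, from the resistant lines ER28 and ER29 (dosed every 4 hours) and ER47 (every 6 hours) and from the parental line, entered the model only to share the estimate of the spread. Each of the 6 lines had 3 libraries.

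Neuroblastoma arises from the sympathoadrenal branch of the neural crest, and its cells can lie nearer to a noradrenergic neuroblast or to a mesenchymal, neural crest-like state. TrkB, the receptor for BDNF, signals through the RAS-ERK and PI3K pathways, and ERK induces its own brakes, among them DUSP phosphatases and Sprouty proteins, together with ETV transcription factors and cyclin D1. Genes of the S phase are driven by E2F factors, whereas genes of mitosis are switched on later in the cycle through promoter elements known as CHR and CCAAT boxes.

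The FPKM of the 6 libraries summed to between 910158 and 1080282, and relative depth, read from the steps of low values, lay between 0.932 and 1.49 times that of ER42 replicate 1. These depths are rough, since each is the most common ratio among few genes. That ratio was shared by 8.9% of 157 genes for ER5 replicate 3 (0.932) and by 13.8% of 152 for ER5 replicate 2 (1.49). Across genes, which are not independent replicates, log2 values correlated at 0.963 to 0.977 within a line and at 0.911 to 0.941 between ER5 and ER42. Of the ER42 libraries, replicate 3 correlated best with each of ER5 replicates 1, 2 and 3, at 0.9269, 0.9275 and 0.9413. With ER42 replicates 1 and 2 the values were 0.9108 to 0.9234. Exact zeros can be failed estimates, since 50 tested genes, of which 0 were protein coding, were listed at 0 in some library while their median was at least 10 FPKM. The small nuclear RNA 7SK was listed at 0 in ER5 replicates 1 and 2 and had 192000 FPKM in ER5 replicate 3.

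Both lines expressed regulators of the noradrenergic lineage, several of them at like levels. HAND2, a regulator of the sympathetic lineage, had 484, 455 and 379 FPKM in ER5 and 492, 463 and 412 FPKM in ER42. Its libraries overlapped between the lines, and HAND2, GATA3 and ISL1 were not called. TH, the rate-limiting enzyme of catecholamine synthesis and a defining marker, was at or near 0, with 0, 0.0211 and 0 FPKM in ER5 and 0.211, 0.581 and 0.534 FPKM in ER42. Markers of other cell types were low. The 8 Schwann cell and glial markers summed to 4.44 to 5.54 FPKM in ER5 and to 3.88 to 5.43 FPKM in ER42, and the 8 immune markers to 1.38 to 2.32 FPKM in ER5 and to 1.71 to 2.11 FPKM in ER42. The 8 endothelial markers summed to 0.956 to 1.26 FPKM in ER5 and to 1.79 to 2.36 FPKM in ER42, and the 5 markers of adrenal cortex to 0.305 to 0.502 FPKM in ER5 and to 0.623 to 0.695 FPKM in ER42. PECAM1, CD3E and MC2R, which define endothelium, T cells and adrenal cortex, were at 0 in all 6 libraries. The 8 fibroblast markers summed to 54.3 to 58.7 FPKM in ER5 and to 55.5 to 96.9 FPKM in ER42, and POSTN among them was at 0 in all 6 libraries. In bulk RNA, fewer cells of a type and less RNA per cell cannot be told apart.

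Close to the same number of genes were higher and lower in ER5 than in ER42, and the large differences were mostly lower in ER5. At a Benjamini-Hochberg adjusted p under 0.05 (limma), 4099 genes (23.2% of those tested) were higher and 4023 (22.8%) were lower in ER5. Folds are given throughout as log2 differences of FPKM + 1, ER5 over ER42, with their SE, and they understate changes of genes with few FPKM. Most called differences were modest, with a median size of 0.53 on the log2 scale. Among protein-coding genes, 243 were at least 2-fold higher and 743 at least 2-fold lower, and 30 were at least 4-fold higher against 140 at least 4-fold lower. The 3 libraries of ER5 lay above all 3 of ER42 for 3756 of the genes called higher, and below them for 3670 of the genes called lower. Over all 17677 genes tested, called or not, the lines did not overlap for 8705. Libraries that do not overlap between the lines were also a condition for naming most genes below. Of 12245 protein-coding genes tested, 3367 were called higher and 2986 lower. Lists of genes are described below by their counts and medians beside these figures, with no test of a list.

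**Figure D1:**
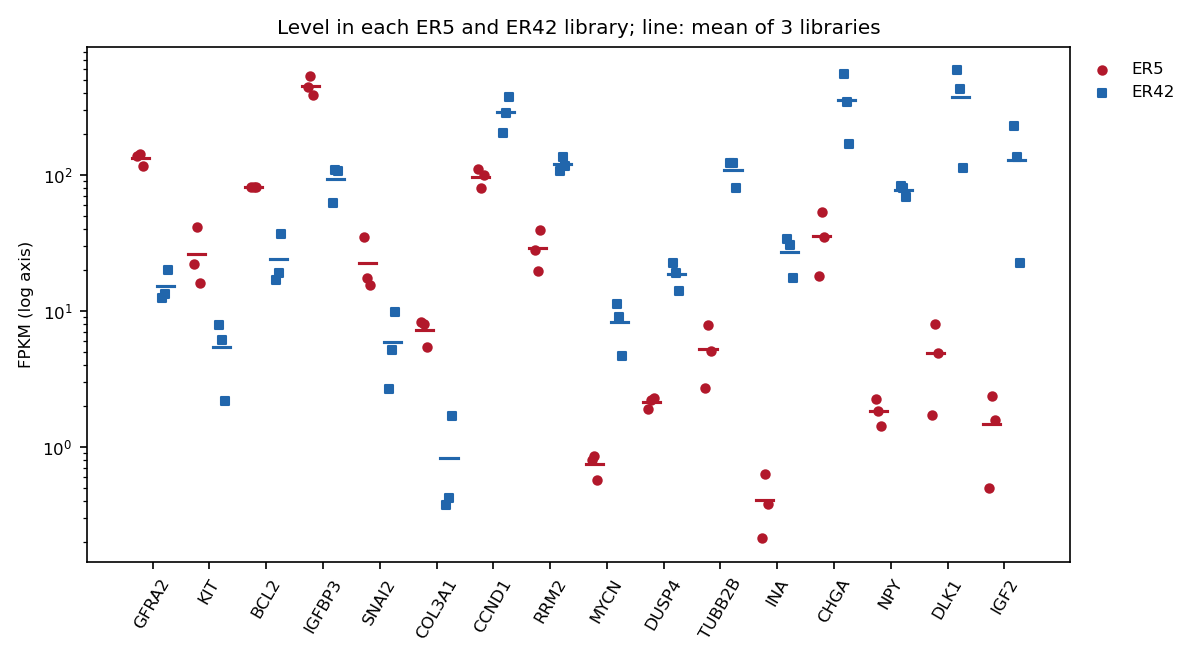
FPKM (log axis) of 16 genes described in the text, with 1 point per library, ER5 in red circles left of ER42 in blue squares, and a line at each mean of 3 libraries. From GFRA2 to COL3A1 all ER5 libraries lie above all ER42 libraries, and from CCND1 to IGF2 all lie below. By log2 fold of FPKM + 1, the largest differences among the 16 genes are those of NPY, DLK1 and IGF2.

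NTRK2 and ALK, targets of the drug, were not called. NTRK2 (ENSG00000148053, chromosome 9), which encodes TrkB, had 276, 238 and 229 FPKM in ER5 and 264, 229 and 290 FPKM in ER42. The lines overlapped, and the fold of -0.07 ± 0.10 was not called (adjusted p = 0.586, limma). ALK, the receptor kinase mutated in some neuroblastomas, had 43.8, 53.1 and 55.9 FPKM in ER5 and 72.1, 66.9 and 50.1 FPKM in ER42. Its fold of -0.29 ± 0.16 was not called (adjusted p = 0.143), and ER42 replicate 3 lay within the range of ER5. Without that library the fold was -0.45 (adjusted p = 0.0335). NTRK3 and ROS1 stayed under the FPKM limit in both lines.

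GFRA2, a co-receptor of another receptor kinase, differed far more. GFRA2 (ENSG00000168546, chromosome 8), through which neurturin engages the kinase RET, had 138, 142 and 116 FPKM in ER5 and 12.4, 13.3 and 19.9 FPKM in ER42. The lines were far apart, at 3.06 ± 0.18 (adjusted p = 1.02e-08). RET itself was called lower in ER5 at -0.69 ± 0.21 (adjusted p = 0.0142), with 22.2, 16 and 22.2 FPKM against 26.5, 26.0 and 50.7 FPKM in ER42. BDNF, the TrkB ligand, had 4.56, 6.45 and 4.07 FPKM in ER5 and 3.90, 3.54 and 2.61 FPKM in ER42, and was called higher at 0.46 ± 0.14 (adjusted p = 0.0150). Among 5 tested Trk receptors and neurotrophins, BDNF included, 3 were called higher in the main model but 0 with the 6 libraries alone. Without ER5 replicate 1, or without ER42 replicate 1 or 2, only 1 was called higher. RET and BDNF were named after their values were seen.

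Of 20 other receptor tyrosine kinases tested, 10 were called higher in ER5 and 3 lower, with a median fold of 0.22 against -0.00 over all genes. KIT, the receptor for stem cell factor, had 22.0, 41.1 and 15.9 FPKM in ER5 and 7.90, 6.07 and 2.17 FPKM in ER42, at 2.12 ± 0.38 (adjusted p = 0.000329). Every ER5 library lay above every ER42 library, although the 3 of each line were spread over more than 2-fold. ROR1, a Wnt5a receptor, was higher at 0.97 ± 0.09 and MERTK, a receptor of the TAM family, at 0.86 ± 0.12. PDGFRA was lower in ER5, with 20.4, 19.1 and 21.1 FPKM against 33.3, 34.6 and 66.4 FPKM in ER42. After removal of a trend of the folds with GC content and length, 8 of the 20 were called higher and 6 lower, and with a limit of 5 FPKM 6 were called higher.

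Proliferation genes were lower in ER5 as a body. All 36 tested genes of mitosis and the spindle were called lower, with a median fold of -1.21, and 32 of 34 genes of DNA replication were called lower, with a median of -1.03; 0 genes of either list were called higher. The mean log2 level of the mitosis list was 4.16, 3.68 and 4.28 in ER5 and 5.19, 5.43 and 5.22 in ER42. For the replication list the mean log2 level was 4.06, 3.74 and 4.14 in ER5 and 4.98, 5.17 and 5.01 in ER42. ER5 replicate 2 was the lowest library for both lists, and the lines stayed apart. MKI67, the gene of the proliferation antigen Ki-67, had 21.6, 16.2 and 25.8 FPKM in ER5 and 55.9, 71.1 and 64.7 FPKM in ER42, at -1.56 ± 0.14 (adjusted p = 4.99e-07). RRM2 (chromosome 2), the inducible subunit of the reductase that makes deoxynucleotides, had 27.8, 19.7 and 39.5 FPKM in ER5 and 107, 134 and 116 FPKM in ER42, at -2.04 ± 0.20 (adjusted p = 1.28e-06). MCM10, a replication initiation factor, was lower at -1.78 ± 0.19, and the replication members not called were MCM7 at -0.11 ± 0.06 and cyclin E1 (CCNE1) at -0.08 ± 0.12.

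The members with large folds in these lists included E2F and centromere genes. E2F1, an activator of S-phase genes, had 6.85, 5.27 and 7.86 FPKM in ER5 and 21.8, 25.3 and 20.7 FPKM in ER42, at -1.64 ± 0.13 (adjusted p = 2.21e-07). E2F2, its close relative, was lower at -1.68 ± 0.16. CENPA, the histone H3 variant of centromeres, had 6.75, 5.12 and 8.29 FPKM in ER5 and 22.4, 25.4 and 20.9 FPKM in ER42, at -1.65 ± 0.16 (adjusted p = 1.18e-06). NUF2, a subunit of the kinetochore complex that binds microtubules, was lower at -1.57 ± 0.14, and ASPM, a spindle pole protein, at -1.47 ± 0.17. For all of these genes the highest ER5 library was under the lowest ER42 library, which was a condition for naming them.

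The promoters of the 2 lists differed in how often they held short motifs. Windows of 300 bases, from 250 before to 50 after the RefSeq start (GRCh38.p14), were searched on both strands for an E2F-type motif (TTGGCGC or TTCCCGC), the CHR motif (TTTGAA) and the CCAAT box (CCAAT). An E2F-type match was found in 20 of 29 replication promoters (69%) and 4 of 31 mitosis promoters (12.9%), against 14.8% of 9975 promoters of tested genes. A CHR match was found in 23 of 31 mitosis promoters (74.2%) and 1 of 29 replication promoters (3.45%), against 9.57% of all. CCAAT matches were found in 80.6% of the mitosis and 51.7% of the replication promoters, against 37.1% of all, and they overlapped an E2F-type match in 1.02% of all promoters. A match is a description of letters and not a site of binding. Shown for each list are the windows of the members with the largest folds among those that are named here and hold the list's own motif, a choice made after the matches were seen, with every match of the 3 motifs in capitals. E2F2 lies at chr1:23531184-23531483 (minus strand), E2F1 at chr20:33686336-33686635 (minus strand), CENPA at chr2:26785806-26786105 (plus strand) and NUF2 at chr1:163321704-163322003 (plus strand), each read 5′ to 3′ on the gene's strand.
E2F2: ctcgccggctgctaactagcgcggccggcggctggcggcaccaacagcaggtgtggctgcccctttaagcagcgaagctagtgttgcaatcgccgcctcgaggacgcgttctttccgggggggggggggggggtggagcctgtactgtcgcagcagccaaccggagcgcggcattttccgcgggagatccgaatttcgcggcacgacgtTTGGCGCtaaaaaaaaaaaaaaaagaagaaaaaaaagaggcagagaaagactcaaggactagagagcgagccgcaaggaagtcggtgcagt
E2F1: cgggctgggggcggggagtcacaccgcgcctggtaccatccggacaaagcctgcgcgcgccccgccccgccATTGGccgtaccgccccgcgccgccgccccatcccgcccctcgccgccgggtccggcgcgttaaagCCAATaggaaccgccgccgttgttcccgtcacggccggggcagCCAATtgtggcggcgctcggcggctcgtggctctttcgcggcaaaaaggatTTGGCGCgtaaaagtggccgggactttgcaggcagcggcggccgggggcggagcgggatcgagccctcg
CENPA: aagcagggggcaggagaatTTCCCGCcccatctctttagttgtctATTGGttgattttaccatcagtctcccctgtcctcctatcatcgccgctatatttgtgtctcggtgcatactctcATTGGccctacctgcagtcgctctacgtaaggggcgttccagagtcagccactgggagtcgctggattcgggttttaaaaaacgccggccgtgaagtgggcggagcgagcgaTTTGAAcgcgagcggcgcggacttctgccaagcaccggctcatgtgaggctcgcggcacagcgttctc
NUF2: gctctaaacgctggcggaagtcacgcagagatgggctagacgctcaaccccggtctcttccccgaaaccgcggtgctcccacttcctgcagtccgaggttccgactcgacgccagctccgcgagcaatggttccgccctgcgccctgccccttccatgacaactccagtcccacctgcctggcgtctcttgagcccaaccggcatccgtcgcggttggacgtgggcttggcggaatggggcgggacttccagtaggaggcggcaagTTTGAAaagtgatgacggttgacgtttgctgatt

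E2F2 has 1 E2F-type match, E2F1 has 1 together with 3 CCAAT matches, CENPA has 1 E2F-type, 1 CHR and 2 CCAAT matches, and NUF2 has 1 CHR match. The window of RRM2, the replication member with the largest fold, held no E2F-type match of these letters.

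Cyclin D1 and several inhibitors of the cell cycle were lower too. Of 15 tested cyclins, CDK inhibitors and RB family genes, 2 were called higher and 8 lower. CCND1, the cyclin that opens the G1 phase, had 111, 80.1 and 99.7 FPKM in ER5 and 203, 286 and 372 FPKM in ER42, at -1.53 ± 0.19 (adjusted p = 1.23e-05). The inhibitors CDKN1C (p57) and CDKN1A (p21) were lower at -1.44 ± 0.14 and -0.75 ± 0.12, and CDKN2C (p18) at -0.59 ± 0.10.

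Genes that report ERK activity were mostly lower in ER5. Of 17 tested, 12 were called lower and 1 higher, with a median fold of -1.27. DUSP4, a phosphatase of ERK, had 1.89, 2.22 and 2.27 FPKM in ER5 and 22.6, 18.9 and 14.1 FPKM in ER42, at -2.62 ± 0.15 (adjusted p = 6.60e-09). ETV4 had 1.14, 1.90 and 1.57 FPKM in ER5 and 13.3, 16.3 and 13.4 FPKM in ER42, at -2.60 ± 0.16 (adjusted p = 9.42e-09). Both genes had no overlap between lines, and ETV5, of the same family of transcription factors, was lower at -2.52 ± 0.20. The immediate early genes of the list moved otherwise: FOS had 103, 59.9 and 35.7 FPKM in ER5 and 6.03, 6.10 and 83.6 FPKM in ER42, and EGR1 had 87.2, 54.9 and 40.4 FPKM in ER5 and 8.05, 5.87 and 140 FPKM in ER42. For both, ER42 replicate 3 lay far above the other libraries of its line. FOS was called higher at 1.93 ± 0.75 (adjusted p = 0.0459), and EGR1 was not called. The list had 0 members called higher with the 6 libraries alone, with a replicate block, with no FPKM filter, with no intensity trend, after removal of the GC and length trends, and without ER5 replicate 1 or 2 or ER42 replicate 1 or 2. It had 2 called higher when fitted on protein-coding genes, under quantile normalisation, and without ER5 replicate 3 or ER42 replicate 3. FOS and EGR1 were named after their values were seen.

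The MYC family differed in MYCN. MYCN (ENSG00000134323, chromosome 2), the oncogene amplified in aggressive neuroblastoma but not in SH-SY5Y cells, had 0.803, 0.856 and 0.570 FPKM in ER5 and 11.2, 8.98 and 4.68 FPKM in ER42. It was lower in every ER5 library, at -2.35 ± 0.19 (adjusted p = 2.18e-07). MYC was the more abundant of the pair in both lines, with 153, 148 and 101 FPKM in ER5 and 141, 115 and 88.4 FPKM in ER42. Its libraries overlapped and it was not called, at 0.22 ± 0.15 (adjusted p = 0.243). The call appeared without ER5 replicate 3 (0.41, adjusted p = 0.0202) and without ER42 replicate 1 (0.38, adjusted p = 0.0462). Over the 22 tested members of the MYC family and its targets, 6 were called higher and 6 lower. ODC1, the entry enzyme of polyamine synthesis, was lower at -1.13 ± 0.13, and MXD4, which competes with MYC for its partner MAX, was higher at 0.79 ± 0.07.

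Neuronal structure genes had the lowest median of the lists described here. Of 23 tested genes for the neuronal cytoskeleton and RNA-binding proteins, 20 were called lower and 1 higher, with a median fold of -2.0. INA, an intermediate filament of neurons, had 0.213, 0.633 and 0.377 FPKM in ER5 and 33.5, 30.7 and 17.5 FPKM in ER42, at -4.29 ± 0.20 (adjusted p = 1.42e-09). TUBB2B, a tubulin of young neurons, had 2.70, 7.83 and 5.06 FPKM in ER5 and 122, 121 and 80.0 FPKM in ER42, at -4.19 ± 0.24 (adjusted p = 6.46e-09). ER42 replicate 3 was the lowest of its line for both and still far above ER5. ELAVL3, a neuronal RNA-binding protein, was lower at -4.17 ± 0.30, and DPYSL5, a regulator of growth cones, at -3.95 ± 0.27. Its relative ELAVL4 (HuD) was the 1 member called higher, at 0.95 ± 0.10, with 233, 244 and 202 FPKM in ER5 and 96.6, 124 and 131 FPKM in ER42. KIF1A, the motor that carries synaptic vesicle precursors along axons, was among the 14 lowest genes at -4.47 ± 0.22. So was MYT1L, a transcription factor that represses other cell fates in neurons, with 0.146, 0.5 and 0.681 FPKM in ER5 and 23.2, 28.5 and 21.6 FPKM in ER42 (-4.15 ± 0.24, adjusted p = 7.59e-09).

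Secretory granule genes followed. Of 12 tested granins and prohormone processing genes, 10 were called lower and 0 higher, with a median fold of -1.65. CHGA (ENSG00000100604, chromosome 14), the chromogranin used as a serum marker of neuroendocrine tumours, had 17.9, 52.9 and 34.8 FPKM in ER5 and 549, 345 and 167 FPKM in ER42, at -3.26 ± 0.35 (adjusted p = 3.24e-06). CHGB had 0.996, 3.18 and 1.69 FPKM in ER5 and 110, 69.0 and 20.0 FPKM in ER42, at -4.28 ± 0.42 (adjusted p = 1.19e-06). ER42 replicate 3 was nearest to ER5 for both chromogranins, without overlap. VGF, a granule protein induced by neurotrophins, had 0.381, 0.859 and 0.768 FPKM in ER5 and 87.0, 76.2 and 24.9 FPKM in ER42, at -5.08 ± 0.34 (adjusted p = 3.11e-08). NPY, a cotransmitter of sympathetic neurons, had 2.25, 1.85 and 1.43 FPKM in ER5 and 82.6, 79.4 and 68.4 FPKM in ER42, at -4.78 ± 0.26 (adjusted p = 4.99e-09). NPY varied little among the libraries of either line. SCG5 and CPE were the granule genes not called, at 0.17 ± 0.12 and -0.24 ± 0.10.

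Most synaptic and channel genes were lower in ER5. Of 31 synaptic vesicle and exocytosis genes 22 were called lower and 5 higher (median -0.67), and of 26 voltage-gated channel genes 17 were lower and 2 higher (median -0.62). With a limit of 5 FPKM, 12 synaptic and 6 channel genes were called lower. SYP, the vesicle protein synaptophysin, had 1.06, 1.27 and 1.03 FPKM in ER5 and 14.2, 12.2 and 8.19 FPKM in ER42, at -2.53 ± 0.17 (adjusted p = 2.48e-08). UNC13A, which primes vesicles for fusion, was lower at -2.61 ± 0.22. SYT1, the calcium sensor of vesicle release, was named after its values were seen, since it went the other way, with 146, 120 and 136 FPKM in ER5 and 58.7, 62.0 and 66.0 FPKM in ER42 (1.09 ± 0.12, adjusted p = 4.89e-06).

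In the catecholamine pathway, 3 of 13 tested genes were called higher and 7 lower. DDC, the enzyme that makes dopamine, had 4.05, 4.09 and 4.22 FPKM in ER5 and 39.3, 38.8 and 35 FPKM in ER42, at -2.92 ± 0.09 (adjusted p = 2.67e-11). Its libraries were tight in both lines. DBH, which turns dopamine into noradrenaline, was lower at -0.81 ± 0.09 and stayed abundant at 215, 190 and 170 FPKM in ER5 and 345, 321 and 339 FPKM in ER42. MAOA, which breaks the amines down, was higher at 1.87 ± 0.21, with 64.3, 97.0 and 54.8 FPKM in ER5 and 23.6, 20.9 and 12.5 FPKM in ER42.

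Of 19 tested transcription factors of noradrenergic identity, 6 were called higher (31.6%) and 5 lower (26.3%), with a median fold of 0.08. Over all genes tested the shares were 23.2% and 22.8%, so this list stood not far from the background. SATB1, a chromatin organiser, was higher at 0.99 ± 0.09 and LMO1, a neuroblastoma susceptibility gene, at 0.67 ± 0.09.

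Imprinted genes, which are expressed from 1 parental copy, held the 3 lowest folds of all named genes. Of 18 tested, 14 were called lower and 2 higher, with a median fold of -1.10. DLK1 (ENSG00000185559, chromosome 14), a membrane protein of immature neuroendocrine cells, had 1.72, 8 and 4.88 FPKM in ER5 and 585, 425 and 112 FPKM in ER42, at -5.86 ± 0.48 (adjusted p = 2.09e-07). RTL1, its neighbour in the same imprinted cluster, had 0.0900, 0.619 and 0.437 FPKM in ER5 and 111, 81.6 and 24.6 FPKM in ER42, at -5.51 ± 0.40 (adjusted p = 7.82e-08). IGF2 (ENSG00000167244, chromosome 11), the fetal growth factor, had 0.495, 2.36 and 1.58 FPKM in ER5 and 227, 134 and 22.3 FPKM in ER42, at -5.25 ± 0.55 (adjusted p = 2.13e-06). In ER42 all 3 genes were lowest in replicate 3, and the lines did not overlap. H19, the noncoding RNA beside IGF2, named here for that position, had 22.1, 35.2 and 31.0 FPKM in ER5 and 1820, 1260 and 383 FPKM in ER42, at -5.00 ± 0.37 (adjusted p = 8.98e-08). Members outside these clusters were lower as well, among them PEG10 at -2.40 ± 0.15, while PLAGL1 was higher at 1.13 ± 0.12.

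The IGF axis, with IGF2 among its 15 tested members, was divided, with 4 called higher and 8 lower. IGFBP5, a secreted binding protein that modulates IGF action, had 275, 279 and 194 FPKM in ER5 and 26.4, 36.0 and 62.4 FPKM in ER42, at 2.62 ± 0.26 (adjusted p = 1.44e-06). IGFBP3, the main IGF carrier of plasma, had 441, 532 and 383 FPKM in ER5 and 62.0, 108 and 107 FPKM in ER42, at 2.31 ± 0.19 (adjusted p = 2.81e-07). Both stood clearly higher in every ER5 library. IRS2, an adaptor of the insulin and IGF1 receptors, was lower at -1.22 ± 0.13, and the receptor gene IGF1R was not called at 0.17 ± 0.09.

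**Figure D2:**
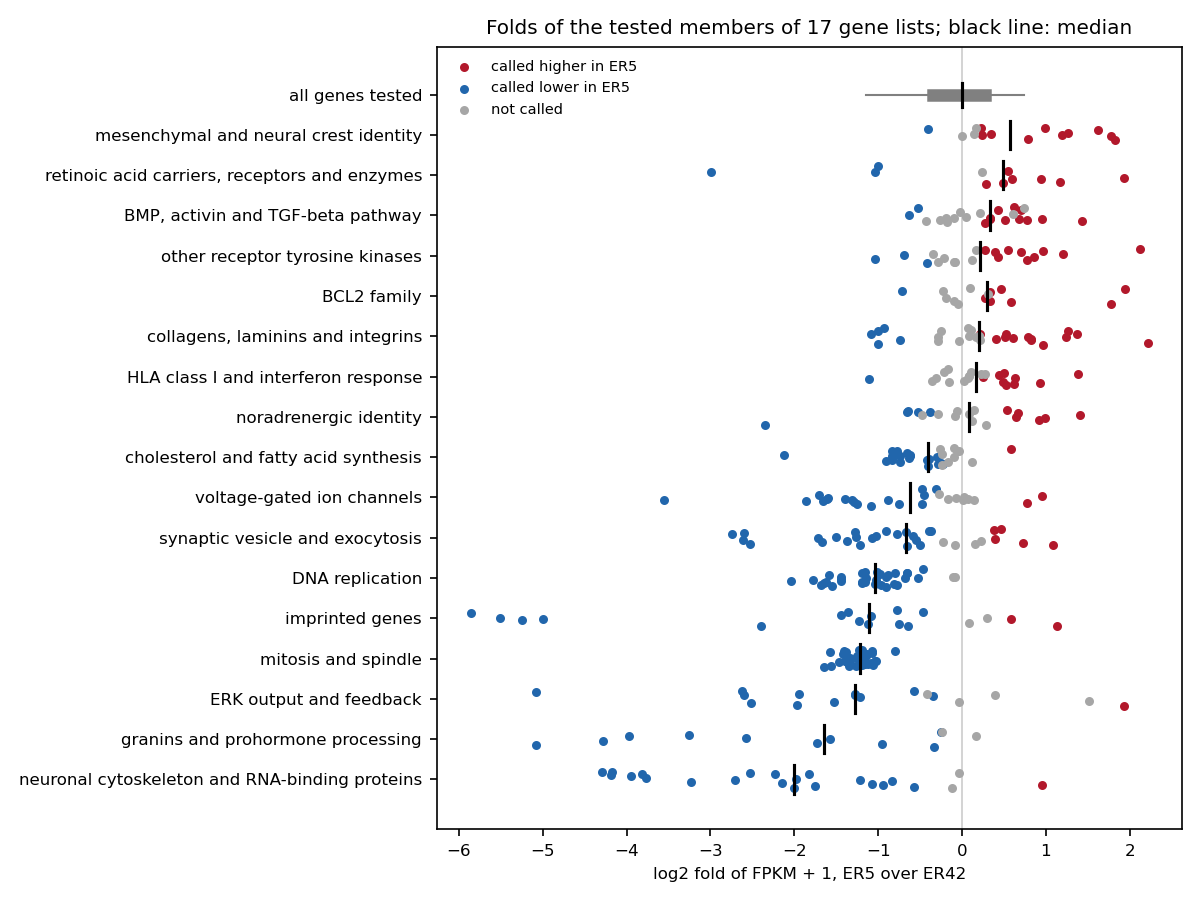
Log2 folds of FPKM + 1, ER5 over ER42, of each tested member of 17 lists, with red points called higher in ER5, blue points called lower, grey points not called, and a black line at the list median; for all genes tested the thick bar spans the middle 50% and the thin line the middle 90%. Mitosis genes cluster around their median of -1.21, whereas neuronal, granin and imprinted genes spread down to folds between -4 and -6.

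The genes highest in ER5 came from several families and included both subunits of 1 potassium channel. TAFA3, a secreted chemokine-like protein, had the highest fold of the named genes, with 25.9, 23.4 and 15.7 FPKM in ER5 and 0.338, 0.381 and 0.721 FPKM in ER42 (3.92 ± 0.18, adjusted p = 1.42e-09). FGF7, a growth factor that acts mainly on epithelial cells, had 37.5, 28.9 and 32.6 FPKM in ER5 and 3.13, 2.23 and 2.39 FPKM in ER42 (3.25 ± 0.20, adjusted p = 1.04e-08). ABCC8 and KCNJ11, neighbours on chromosome 11 that encode the sulfonylurea receptor and the pore of the ATP-sensitive potassium channel, were higher at 3.13 ± 0.25 and 2.91 ± 0.22. ABCC8 had 21.5, 20.5 and 17.1 FPKM in ER5 and 1.90, 1.34 and 0.933 FPKM in ER42, and KCNJ11 had 15.0, 14.9 and 9.46 FPKM in ER5 and 1.05, 0.811 and 0.693 FPKM in ER42. ABCC8 averaged 1.66 FPKM in ER28, 14.7 in ER29, 9.93 in ER47 and 0.801 in the parental line, and KCNJ11 averaged 0.665 FPKM in ER28, 9.64 in ER29, 5.92 in ER47 and 0.361 in the parental line. PTPN13, a large tyrosine phosphatase, had 111, 102 and 111 FPKM in ER5 and 9.95, 12.3 and 17.9 FPKM in ER42 (2.95 ± 0.16, adjusted p = 5.64e-09). Extracellular matrix proteins made up several of the rest, with ADAMTSL1 at 3.24 ± 0.31, HMCN1 (hemicentin) at 2.85 ± 0.12 and the procollagen protease ADAMTS2 at 2.63 ± 0.37. ADM, the vasodilator peptide adrenomedullin, was higher at 2.71 ± 0.29.

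Mesenchymal and neural crest genes were mostly higher in ER5 than in ER42. Of 14 tested, 10 were called higher and 1 lower, with a median fold of 0.57, and 14 of the 28 genes of the list did not reach the FPKM limit. The mean log2 level of the list was 5.75, 5.43 and 5.43 in ER5 and 4.61, 4.81 and 5.01 in ER42. The other resistant lines also lay above ER42, at 5.16 to 5.23 in ER28, 5.27 to 5.46 in ER29 and 5.21 to 5.41 in ER47. In the parental line the level was 4.36 to 4.45. SNAI2, the neural crest repressor of cell adhesion, had 34.9, 17.4 and 15.5 FPKM in ER5 and 2.64, 5.19 and 9.81 FPKM in ER42, at 1.83 ± 0.32 (adjusted p = 0.000265). SOX9, another neural crest factor, had 14.3, 9 and 7.43 FPKM in ER5 and 1.25, 2.04 and 3.62 FPKM in ER42, at 1.78 ± 0.23 (adjusted p = 1.63e-05). In ER42 both were highest in replicate 3, which stayed under ER5. NOTCH2 and NOTCH3 were higher at 1.27 ± 0.11 and 1.19 ± 0.15. VIM, the classic mesenchymal filament vimentin, was the member called lower, with 352, 353 and 354 FPKM in ER5 and 398, 460 and 567 FPKM in ER42 (-0.41 ± 0.13, adjusted p = 0.0182), and 0 members were called lower without ER42 replicate 3 or under quantile normalisation. PRRX1, which drives the mesenchymal state in neuroblastoma, did not reach the FPKM limit. Beside these values, the fibroblast markers PDGFRB and COL3A1 were higher in ER5 while PDGFRA and LUM were lower, and the part of such cells in the result was not tested.

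**Figure D3:**
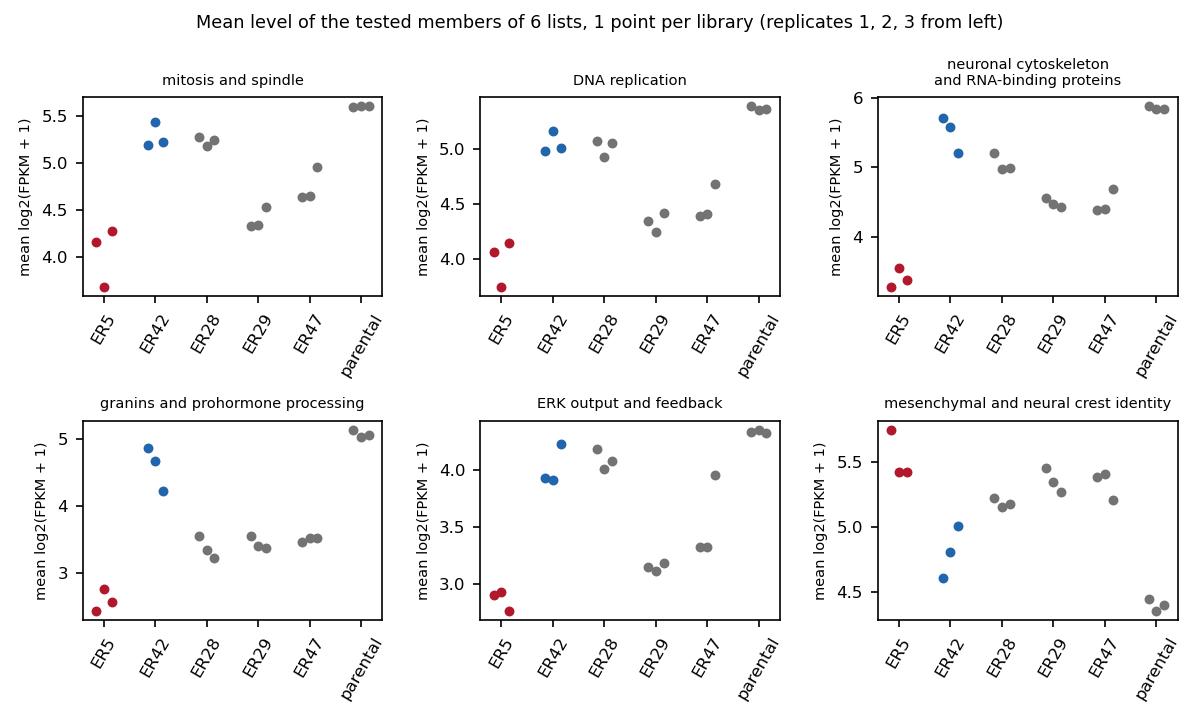
Mean log2(FPKM + 1) over the tested members of 6 lists in each library (replicates 1, 2 and 3 from left), with ER5 in red, ER42 in blue, and ER28, ER29, ER47 and the parental line in grey. ER5 and ER42 stay apart in all 6 lists, as with 4.16, 3.68 and 4.28 in ER5 and 5.19, 5.43 and 5.22 in ER42 for mitosis.

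Matrix, retinoid and BMP genes were called higher more often than lower. Of 29 collagens, laminins and integrins, 13 were called higher in ER5 and 5 lower (median 0.20). COL3A1, a fibrillar collagen, had 8.22, 7.96 and 5.41 FPKM in ER5 and 0.373, 0.421 and 1.68 FPKM in ER42, at 2.22 ± 0.20 (adjusted p = 4.30e-07). The neighbours COL6A1 and COL6A2 were higher at 1.27 ± 0.13 and 1.24 ± 0.19, and LAMA5, a laminin chain of basement membranes, was lower at -1.08 ± 0.10. Among 11 retinoic acid genes 7 were higher and 3 lower (median 0.49): the receptor RXRA was higher at 1.93 ± 0.13, with 12.6, 11.9 and 11.4 FPKM in ER5 and 1.78, 2.16 and 3.40 FPKM in ER42 (adjusted p = 2.24e-08). The retinol uptake receptor STRA6 went the other way at -2.99 ± 0.28, with 3.53, 1.57 and 2.90 FPKM in ER5 and 20.5, 33.4 and 29.8 FPKM in ER42 (adjusted p = 7.55e-07). CRABP1, a cytoplasmic carrier of retinoic acid, was lower at -1.04 ± 0.21, and ALDH1A3, which makes retinoic acid, was higher at 1.17 ± 0.24. Of 23 BMP, activin and TGF-beta genes, 11 were called higher and 2 lower, but 6 were called higher with the 6 libraries alone and 7 without ER42 replicate 1. FSTL1, a secreted modulator of BMP signals, was higher at 0.96 ± 0.14 and the receptor BMPR2 lower at -0.53 ± 0.07.

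Within the BCL2 family, which sets the threshold for apoptosis, 7 of 14 tested genes were called higher and 1 lower. BCL2 (ENSG00000171791, chromosome 18), a guardian against apoptosis, had 81.5, 81.1 and 80.7 FPKM in ER5 and 16.8, 19.1 and 36.8 FPKM in ER42, at 1.78 ± 0.19 (adjusted p = 2.43e-06). BMF, a BH3-only promoter of apoptosis, had 55.1, 42.9 and 37.8 FPKM in ER5 and 7.06, 8.97 and 19.6 FPKM in ER42, at 1.95 ± 0.25 (adjusted p = 1.61e-05). For both, ER42 replicate 3 was the highest of its line and lay under every ER5 library. BCL2L11 (BIM) was higher at 0.59 ± 0.14 and PMAIP1 (NOXA) lower at -0.72 ± 0.11, so protective and death-promoting members were both among the genes called higher. Once the trends with GC content and length were taken out, 5 were called higher and 3 lower.

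Lipid synthesis genes were mostly lower by smaller steps, and metabolic and stress genes were called lower more often than higher. Of 31 cholesterol and fatty acid synthesis genes 21 were called lower and 1 higher, with a median fold of -0.40. STARD4, a carrier of cholesterol inside the cell, had 3.58, 3.90 and 2.76 FPKM in ER5 and 23.9, 18.4 and 13.5 FPKM in ER42, at -2.12 ± 0.14 (adjusted p = 3.64e-08). SREBF1, the regulator of lipid synthesis, was lower at -0.90 ± 0.13. Of 36 hypoxia and glycolysis genes 18 were lower and 6 higher, with LDHA, which makes lactate, at -0.92 ± 0.12. Of 24 immediate early and heat shock genes 11 were called lower and 4 higher (median -0.26), with the chaperones HSP90AA1 at -0.80 ± 0.09 and HSPH1 at -0.83 ± 0.12 among the lower. Of that list, 2 were called higher without ER5 replicate 1 or without ER42 replicate 1 or 2, and 1 with the 6 libraries alone. In contrast, 22 HLA class I and interferon genes gave 9 higher and 1 lower, led by HLA-E at 1.38 ± 0.10.

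Some differences lay in runs of neighbouring genes. Windows of 40 neighbouring protein-coding genes with a median fold of at least 0.5 in size were merged, a limit chosen with the data in view. They gave 5 runs on 4 chromosomes, placed by gene order in GENCODE v29. At the end of chromosome 5, from CCNG1 to TRIM52, 72 of 90 genes were called higher in ER5 and 8 lower, with a median fold of 0.77. RACK1, a ribosomal scaffold protein, had 3190, 3300 and 2620 FPKM in ER5 and 950, 854 and 816 FPKM in ER42 (1.79 ± 0.11, adjusted p = 9.42e-09), and CREBRF and CLK4 were higher at 1.41 ± 0.08 and 1.42 ± 0.11. At the start of chromosome 8, from ZNF596 to FHIP2B, 28 of 47 genes were called higher and 8 lower, with a median of 0.56. GFRA2 lies in that run, as does DLC1, a tumour suppressor, with 15.6, 12.4 and 16.3 FPKM in ER5 and 1.92, 2.61 and 2.30 FPKM in ER42 (2.27 ± 0.22, adjusted p = 1.04e-06).

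Runs of genes lower in ER5 lay on chromosomes 2 and 3. At the start of chromosome 2, from SH3YL1 to GAREM2, 56 of 73 genes were called lower and 2 higher, with a median of -0.52, and MYCN, MYT1L and RRM2 belong to that run, as do the DNA repair nuclease GEN1 (-1.64 ± 0.14) and the centromere gene CENPO (-1.44 ± 0.13). A further run on chromosome 2, from PRKD3 to FOXN2, had 38 of 48 genes called lower (median -0.48). It held CALM2, a calmodulin gene, with 203, 197 and 196 FPKM in ER5 and 530, 568 and 488 FPKM in ER42 (-1.41 ± 0.08, adjusted p = 5.32e-09), and the mismatch repair gene MSH6 at -0.84 ± 0.06. At the end of chromosome 3, from VWA5B2 to LMLN, 47 of 63 genes were lower and 3 higher (median -0.52), among them TFRC, the transferrin receptor, at -1.0 ± 0.07 and ETV5 at -2.52 ± 0.20.

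The parental line, shared by both of the following differences, set the runs against a common level. The chromosome 5 run had a median of 0.22 in ER5 over parental and -0.54 in ER42 over parental, and the 3 other resistant lines lay between 0.18 and 0.22. The chromosome 8 run had -0.08 in ER5 and -0.55 in ER42 over parental, with ER47 at -0.35. For the first run of chromosome 2 the median was -0.42 in ER5 and 0.03 in ER42, and the other 3 lines were between -0.01 and 0.06. The chromosome 3 run had -0.10 in ER5 and 0.34 in ER42. DNA copy number was not analysed here, and its part in these runs was not tested.

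**Figure D4:**
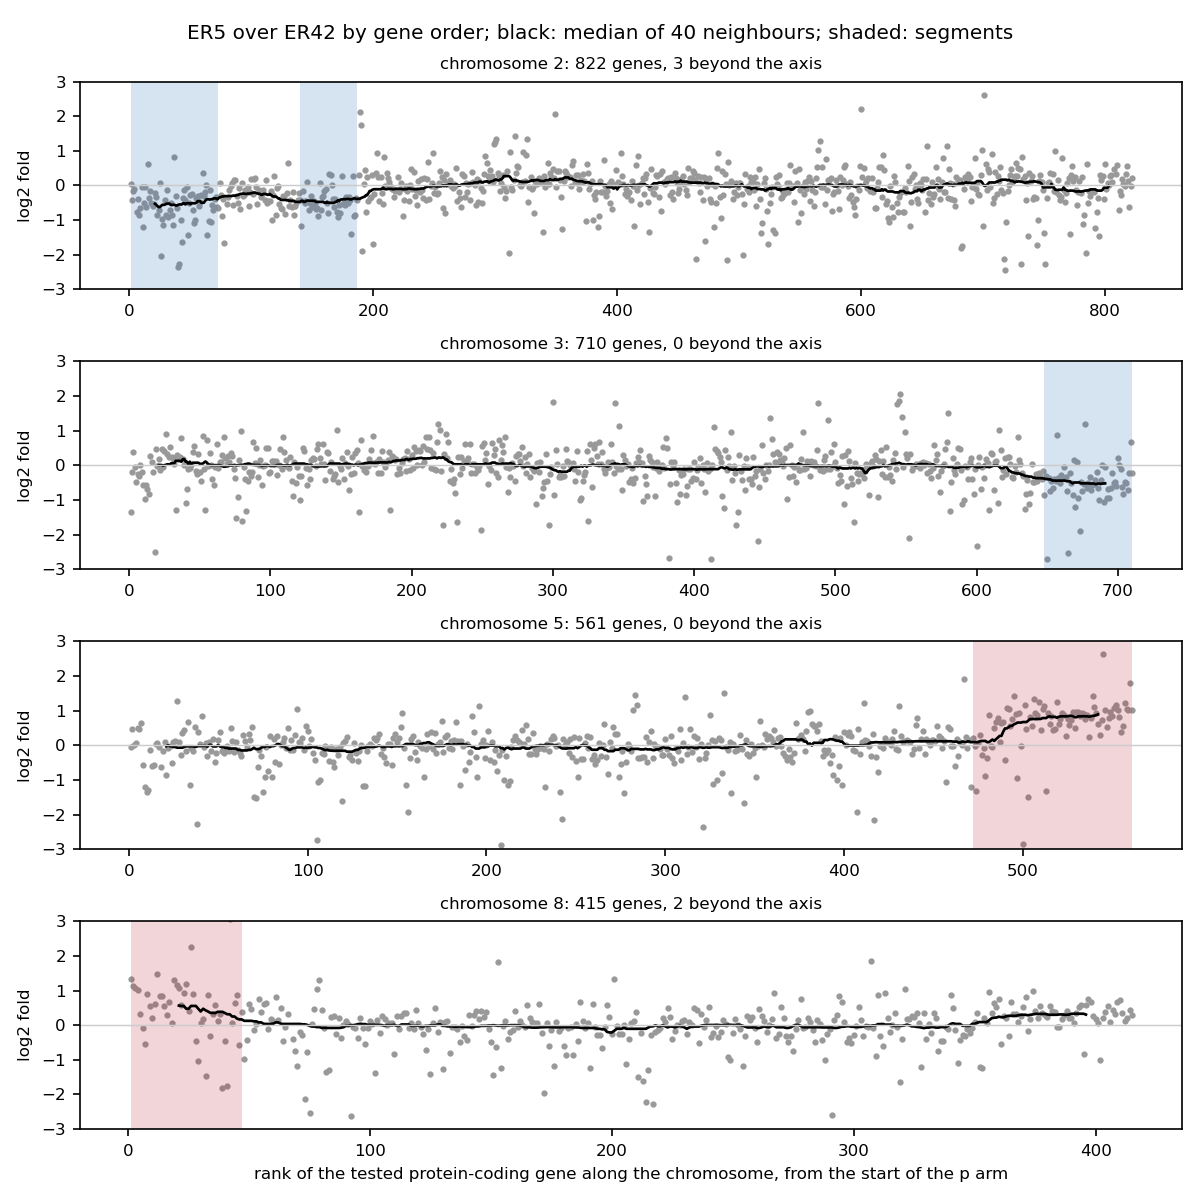
Log2 fold of FPKM + 1, ER5 over ER42, of tested protein-coding genes against their rank along chromosomes 2, 3, 5 and 8, with grey points for genes, a black line for the median of 40 neighbours, and shading where runs are higher (red) or lower (blue) in ER5. The line leaves 0 over the run at the end of chromosome 5 (median 0.77) and over the first run of chromosome 2 (median -0.52).

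Set beside the remaining lines, neither ER5 nor ER42 stood alone for most genes. Of the 743 protein-coding genes at least 2-fold lower in ER5, the means of ER28, ER29, ER47 and the parental line all lay nearer to ER42 for 128 (17.2%) and all nearer to ER5 for 49 (6.59%). Of the 243 at least 2-fold higher, all 4 lay nearer to ER42 for 27 (11.1%) and all nearer to ER5 for 15 (6.17%). DDC illustrates the order of the lines, with means of 4.12 FPKM in ER5, 37.7 in ER42, 20.3 in ER28, 12.2 in ER29, 18.1 in ER47 and 44.2 in the parental line. IGF2 averaged 1.48 ± 0.937 FPKM in ER5 and 128 ± 103 FPKM in ER42 (SD, n = 3 each), against 4.24 in ER28, 4.25 in ER29, 18 in ER47 and 1290 in the parental line. GFRA2 averaged 132 ± 13.8 FPKM in ER5 and 15.2 ± 4.09 FPKM in ER42, against 51.5 in ER28, 87.1 in ER29, 62.5 in ER47 and 0.599 in the parental line. For all 3 genes ER42 was the resistant line nearest to the parental line.

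Folds followed GC content among protein-coding genes. With genes split by GC content into 5 ranges, the median fold was 0.13 in the highest and -0.08 in the lowest, and the share called higher was 36.0% in the highest and 14.6% in the lowest. With that trend and the trend with length removed, all 36 mitosis genes were called lower, at a median of -1.19, and the neuronal list had 20 called lower at a median of -2.17. Processed pseudogenes, which share sequence with their parent genes and whose counts are uncertain, gave 52 called higher and 266 lower of 1105.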

How the data were processed

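Total RNA of 18 libraries was sequenced after ribosomal RNA removal, and the ER5 and ER42 libraries are compared here. The authors deposited FPKM values per Ensembl gene. Per the submitters' processing notes, the build was hg19 and the tools included STAR 2.5.3, STAR-Fusion, featureCounts and Subread 1.5.0-p1. The sources used here give neither the tool behind the FPKM, nor use of the strand in counting, nor which libraries ran on the HiSeq and which on the NextSeq. No batch was therefore tested, and genes that overlap, lie antisense or have a near-identical copy, such as HSPA1B, are uncertain. FPKM are not counts, and no count test was used.

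Symbols matched 16850 of 17677 genes (95.3%), and gene type, chromosome and order came from GENCODE v29, in which 16935 (95.8%) were found. Since the values were made on hg19, no gene coordinates are given; promoter windows are RefSeq's on GRCh38.p14. Values were transformed to log2(FPKM + 1), with a pseudocount of 1, and a limma 3.58.1 model (R 4.3.3) with an intensity trend and a coefficient for each line took in all 18 libraries. The two-sided test of ER5 minus ER42 was adjusted by Benjamini-Hochberg over all 17677 genes, and genes were called at an adjusted p under 0.05. Whether a line's 3 libraries came from separate cultures is not stated in the labels; the p-values then reflect only how these samples spread, which may be technical.

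Genes, gene lists and tests were chosen with earlier results of these data known. Named are the 14 highest and 14 lowest folds among called protein-coding genes whose lines do not overlap, whose higher line averages at least 5 FPKM and whose call holds without each library, with the 6 libraries alone and under quantile normalisation with a fold that moves by no more than 1.5 times; up to 4 such members per list and 6 per chromosome run; and the drug's targets, MYCN and MYC. Some genes that these rules name are not reported here. Other names were added after their values were seen, as exceptions or neighbours. Alternatives were a pseudocount of 0.1, no filter, a limit of 5 FPKM, quantile and median-of-ratios scaling, the 6 libraries alone, a replicate block, protein-coding genes only, no trend, each library left out, and, added after seeing the data, removal of the trend with GC content and length.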

Additional observations from a re-analysis of the deposited data

How the results depend on the processing

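Genes called higher in ER5 numbered 4099 and lower 4023, and over all alternatives they numbered 2905 to 4795 and 2713 to 4708. With each library left out in turn they numbered 3354 to 4177 and 3229 to 4432. Quantile normalisation gave 57.0% of calls as higher against 50.5%. It moved the median of all genes by the largest step of any alternative, to 0.05. Replicate numbers did not pair the samples, since the deviations of same-numbered ER5 and ER42 libraries correlated at 0.0582, -0.0525 and 0.101; with a replicate block, 4167 genes were called higher and 4128 lower. Of 2996 values of 188 single genes under alternatives, 2985 kept direction and side of the threshold. With each library left out, the NTRK2 fold lay between -0.16 and 0.01. NTRK2 changed sign from its main fold of -0.07 under quantile normalisation (0.09, adjusted p = 0.379) and without ER42 replicate 3 (0.01, adjusted p = 0.973), and was called in neither; the cause was not tested. ALK was called with the GC and length trend removed (-0.44, adjusted p = 0.0437). Among 1312 counts of list members called, 119 moved by over 1.5 times. Mitochondrially encoded transcripts moved most often, with 7 of 15 called lower in the main model, 13 under quantile normalisation and 3 with the 6 libraries alone. Depth limits genes of few FPKM, whose folds are understated.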

Other observations

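Axon guidance lists held genes called in both directions, and the members named here were picked for large folds. Of 25 tested semaphorins, neuropilins and plexins, 8 were called higher in ER5 and 7 lower, with a median fold of -0.07. Of 13 ephrins and Eph receptors 5 were higher and 4 lower, and of 14 netrin, slit and receptor genes 6 and 5. Over all genes tested, 23.2% were called higher and 22.8% lower. EFNB2, a ligand of Eph receptors, had 2.03, 2.10 and 2.22 FPKM in ER5 and 29.5, 21.8 and 10.0 FPKM in ER42, at -2.66 ± 0.27 (adjusted p = 1.55e-06, limma). Its receptor gene EPHB4 was higher, with 50.2, 47.1 and 39.4 FPKM in ER5 and 18.6, 21.8 and 27.8 FPKM in ER42, at 0.98 ± 0.12 (adjusted p = 9.36e-06). ER5 and ER42 did not overlap for either gene. The transmembrane semaphorins SEMA5A and SEMA5B also differed in opposite directions, with SEMA5A at 34.7, 32.4 and 32.4 FPKM in ER5 and 12.1, 13.1 and 13.9 FPKM in ER42 (1.29 ± 0.18) and SEMA5B at 0.910, 2.08 and 1.13 FPKM in ER5 and 9.14, 7.93 and 11.8 FPKM in ER42 (-2.18 ± 0.16). ROBO1, a receptor of SLIT proteins, and SLIT3 were both higher in ER5, at 1.14 ± 0.11 and 0.88 ± 0.08. L1CAM, an adhesion molecule of axons, had 0.369, 1.76 and 0.809 FPKM in ER5 and 34.3, 28.2 and 13.8 FPKM in ER42, at -3.71 ± 0.29 (adjusted p = 1.35e-07). B4GALNT1, the enzyme that makes the gangliosides GM2 and GD2 (GD2 is the antigen of antibody therapy in neuroblastoma), had 4.42, 2.84 and 3.37 FPKM in ER5 and 13.9, 17.5 and 12.0 FPKM in ER42, at -1.77 ± 0.15 (adjusted p = 2.42e-07).

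Developmental signalling and lysosomal lists likewise held genes called in both directions. In the Notch list 6 of 18 tested genes were called higher and 6 lower. JAG1, a Notch ligand, had 14.5, 15.3 and 11.0 FPKM in ER5 and 5.96, 3.86 and 2.26 FPKM in ER42 (1.60 ± 0.24), whereas HES6 and HEY1, transcription factors of the Notch and proneural circuits, were lower at -1.47 ± 0.18 and -1.29 ± 0.16. In the Wnt list 9 of 25 tested genes were called higher and 5 lower. LGR5, a receptor for R-spondins, had 34.5, 18.9 and 32.2 FPKM in ER5 and 58.0, 65.1 and 115 FPKM in ER42 (-1.42 ± 0.22), and TCF7L1, a transcription factor that acts with beta-catenin, was higher at 1.44 ± 0.12. Of 14 tested HOX cluster genes 6 were called higher and 3 lower, with HOXD8 at 1.28 ± 0.12 and HOXD9 at 1.01 ± 0.15; with a limit of 5 FPKM, 3 were called higher. Of 31 lysosome and vacuolar ATPase genes 14 were called higher and 6 lower, with the proteases CTSF and CTSB at 1.20 ± 0.14 and 0.93 ± 0.13; with the trends of GC content and length taken out, 14 were higher and 10 lower. DNMT1, the maintenance DNA methyltransferase, was lower in ER5 at -1.09 ± 0.13 and SMARCA2, an ATPase of chromatin remodelling, higher at 1.01 ± 0.12.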
